A study of Mus musculus with 7 samples.

Results

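Neprilysin and 6 related membrane peptidases were measured in the testis of adult mice lacking Phf13 and of wild type mice. The 7 genes, Mme, Mmel1, Ece1, Ace, Anpep, Enpep and Dpp4, are listed by symbol, and all 7 were among the 18194 genes tested. Mme was picked on its own values, as one of the genes with the largest knockout minus wild type difference, so its difference is a description and carries no test. The other 6 were chosen by family or shared peptide substrates with earlier results of these data known. The 7 genes had 14 probe sets with a single gene symbol, and the brightest probe set of a gene, by its mean over the 7 arrays, is its main one.

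The series compared testis RNA of Phf13 knockout mice (n = 3 arrays) with testis RNA of wild type mice (n = 4 arrays), all aged 15 to 20 weeks. Phf13 is a chromatin protein whose PHD finger recognises methylated lysine 4 of histone H3. The strain, the way Phf13 was deleted and whether each array came from a separate animal are not stated in the labels, so errors measure the spread between arrays, which may be partly technical. Phf13 itself had log2 signals of 6.04, 5.83 and 5.71 in the knockout arrays, against 8.66, 8.64, 8.73 and 8.54 in the wild type arrays; whether its probe set lies in the deleted stretch is unstated. Array medians lay between 5.01 and 5.08 on the log2 scale, and arrays correlated at 0.984 to 0.997 across genes. Each array title opens with a different number. Here the arrays were put into 3 groups by the first 4 digits of that number, a rule the labels do not give. The first holds the arrays knockout 1 and wild type 1, the second holds knockout 2, wild type 2 and wild type 3, and the last holds knockout 3 and wild type 4. What these numbers mean is not stated, and differences inside each title-number group, in this order, are given beside the pooled ones.

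Membrane peptidases sit on the cell surface with the active site facing outward and trim or inactivate peptide hormones. Neprilysin and its relatives are zinc endopeptidases, angiotensin-converting enzyme (Ace) is a zinc enzyme that clips dipeptides from the carboxyl end, Anpep and Enpep are zinc aminopeptidases that remove single residues from the amino end, and Dpp4 is a serine peptidase that removes dipeptides from the amino end. Between them they make or destroy angiotensins, endothelins, bradykinin, tachykinins, enkephalins and natriuretic peptides. In testis, Ace is known for a short germ cell form of postmeiotic cells, which is transcribed from a start inside the gene, and Mmel1 for expression in germ cells; mice that lack either product have reduced male fertility.

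Promoter stretches of 2 genes are shown. The Ace pair contrasts the outer start with the start inside the gene, where the known germ cell form begins, and the Mme stretch belongs to the member with the large difference. The sequences are RefSeq's on the GRCm38.p6 build, read 5′ to 3′ on the plus strand, and each covers the 150 bases before one RefSeq transcription start. Capitals mark matches, on either strand, to the GC box (GGGCGG), the TATA box (TATAAA), the TATA-like element TCTTAT and the CRE-like element TGAGGTCA. CRE is the cyclic AMP response element, TGACGTCA.
Ace start 1, chr11:105967798-105967947: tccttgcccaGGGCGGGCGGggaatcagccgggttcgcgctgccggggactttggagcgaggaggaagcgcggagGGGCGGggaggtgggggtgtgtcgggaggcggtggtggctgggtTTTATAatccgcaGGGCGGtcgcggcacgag
Ace start 2, chr11:105975039-105975188: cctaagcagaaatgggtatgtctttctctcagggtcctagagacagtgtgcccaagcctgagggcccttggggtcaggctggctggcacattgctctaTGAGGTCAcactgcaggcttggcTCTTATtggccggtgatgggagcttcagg
Mme start 2, chr3:63295722-63295871: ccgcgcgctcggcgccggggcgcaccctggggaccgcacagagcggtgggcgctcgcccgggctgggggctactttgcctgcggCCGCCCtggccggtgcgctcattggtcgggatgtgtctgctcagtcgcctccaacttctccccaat

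Start 2 of Ace lies 7241 bases inside the gene. Its window, from 250 bases before to 50 after the start, held 2 CpG dinucleotides, and that of start 1 held 29. The window of start 2 had the CRE-like element at −52 and TCTTAT at −29, counted from the start, and no GC box. The window of start 1 had 4 GC boxes, the first 2 of them overlapping, and the TATA box on the opposite strand at −31. Mme has 3 RefSeq starts. The window of its first held 4 CpG dinucleotides, and those of starts 2 and 3, which overlap, held 32 and 29. The single Mmel1 window held 5, with the CRE-like element on the opposite strand 18 bases into the transcript and a GC box at −83.

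The 13 windows of the 7 genes fell into a CpG-rich set, with 21 to 32 CpG dinucleotides, at Ace start 1, Mme starts 2 and 3, Ece1 starts 1 to 3 and Anpep, and a CpG-poor set, with 2 to 7, at the others. The windows of Ece1 starts 1 and 2 overlap. All 32851 RefSeq mouse windows of this length had a median of 7 CpG dinucleotides. Over all of them the GC box had a match in 35.7%, the TATA box in 13.6%, TCTTAT in 10.5%, the CRE-like element in 2.17% and the CRE in 1.79%, on either strand. No member window matched the CRE letters. A match is a description of the letters and shows no binding, and the array data do not say which start a probe set reads.

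**Figure D1:**
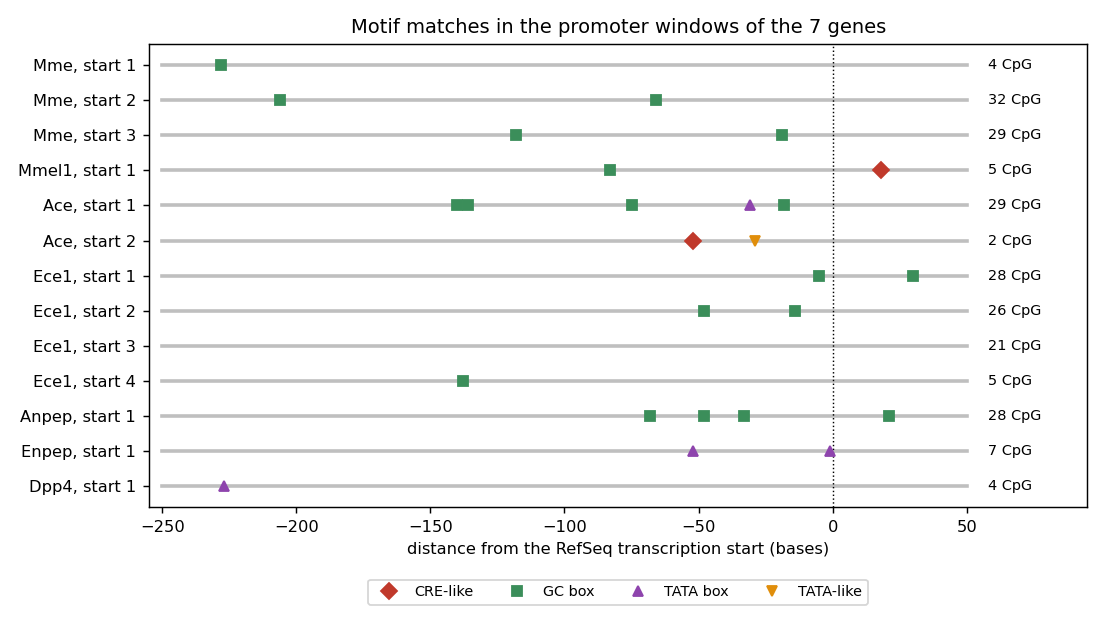
Motif matches in the 13 RefSeq promoter windows of the 7 genes, by distance in bases from the transcription start (dotted line), with each window's count of CpG dinucleotides at the right. The CRE-like element (diamonds) is found at Ace start 2 and in the Mmel1 window. GC boxes (squares) lie in every CpG-rich window except that of Ece1 start 3. They also lie in the CpG-poor windows of Mme start 1, Mmel1 and Ece1 start 4.

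Mme encodes neprilysin, the endopeptidase that cleaves enkephalins, tachykinins, natriuretic peptides and amyloid beta. Its main probe set had log2 signals of 7.48, 7.60 and 7.57 in the knockout arrays, against 5.83, 5.81, 6.0 and 6.45 in the wild type arrays. The knockout arrays were close together and all lay above the highest wild type array, by 1.03 or more. Means were 7.55 ± 0.06 (SD, n = 3) in knockout testis and 6.02 ± 0.30 (SD, n = 4) in wild type testis, a log2 difference of 1.53 (SE 0.15), or 2.88-fold.

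The second Mme probe set was dimmer and showed a smaller difference. It had 5.37, 5.58 and 5.46 in the knockout arrays, against 4.27, 4.44, 4.46 and 4.90 in the wild type arrays. The groups again did not overlap, as for 23.9% of all probe sets, and the log2 difference was 0.95 (SE 0.14), or 1.94-fold. The wild type signals of this probe set lie under the array medians, with no evidence that they exceed background, so its fold is uncertain. In the order of differences that Mme was chosen from, Slc22a29 came just before it (2.31) and Igfbp3 just after it (1.43).

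Wild type 4 stood apart from the other wild type arrays for Mme. It lay 0.57 above the mean of wild type 1 to 3 on the main probe set and 0.51 above it on the second. Without wild type 4 the log2 difference was 1.67. Within the title-number groups the main probe set differed by 1.65, 1.695 and 1.12, and the second by 1.10, 1.13 and 0.56.

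**Figure D2:**
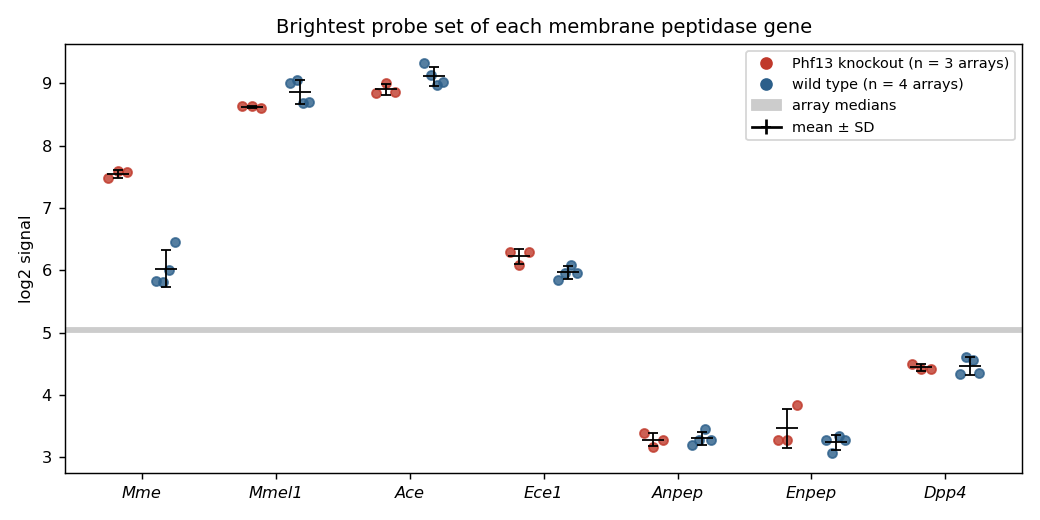
Log2 signal of the main probe set of each gene in the 3 knockout arrays (red) and the 4 wild type arrays (blue), with the mean ± SD; the grey band spans the array medians. For Mme the groups lie furthest apart, Mmel1 and Ace signals are a little lower in knockout arrays, and Anpep, Enpep and Dpp4 lie below the array medians in both genotypes.

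Markers of Sertoli and Leydig cells, which are somatic cells of the testis, were higher in the same arrays. In whole tissue, a change in the share of cells of a type and a change in RNA per cell cannot be told apart. Of 10 markers of Sertoli cells, the nurse cells of the seminiferous tubule, 9 rose, and their summed linear signal was 8195 to 9149 in knockout arrays and 4650 to 6198 in wild type arrays. Of 7 measured markers of Leydig cells, the source of testosterone, 3 rose (sum 5996 to 7439 in knockout arrays and 3258 to 4721 in wild type arrays). Among all tested genes 9.07% rose. Calls over all genes dropped from 2934 to 175 without knockout 3, and to 0 by a plain test per gene.

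Most listed markers of contractile peritubular cells and the listed macrophage markers also had higher means in knockout arrays. Of 9 peritubular markers 4 rose (3346 to 3621 in knockout arrays and 2441 to 2745 in wild type arrays), beside 9.07% of all tested genes. The peritubular markers Actg2 and Des went the other way, with log2 fold changes of −0.117 and −0.025, and did not pass. Of 10 macrophage markers 5 rose (1181 to 1790 in knockout arrays and 870 to 1099 in wild type arrays). The endothelial list (448 to 505 in knockout arrays and 454 to 484 in wild type arrays), the lymphocyte list (241 to 252 in knockout arrays and 245 to 252 in wild type arrays) and the epididymis list (83 to 255 in knockout arrays and 104 to 149 in wild type arrays) overlapped between genotypes. By limma and by a plain test, 0 of 10, 0 of 7 and 0 of 5 markers passed, with 0, 2 and 0 at an unadjusted p under 0.05. Of all 18194 genes, 6146 had an unadjusted p under 0.05 by limma. No marker has a signal of 0, since array signals have a floor, and 4 of the 5 measured epididymis markers lay below the array medians in both genotypes. Wild type 4, the highest wild type array for Mme, also had the highest wild type sum for the Leydig list (4721), the peritubular list (2745) and also for the endothelial list (484), but not for the Sertoli list (5437) or the macrophage list (1045). The part of these cells in the Mme difference was not tested.

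The 5 genes whose pattern over the 7 arrays lay nearest to that of Mme were Fabp5, Sparcl1, Igf1, Ogn and Pla2g4a. Nearness was the mean absolute difference between the 2 genes after each was centred on its own mean, and it was 0.160, 0.164, 0.192, 0.193 and 0.202 on the log2 scale. Ogn, which encodes the matrix proteoglycan osteoglycin, had 8.41, 8.17 and 8.48 in the knockout arrays, against 7.09, 6.85, 7.41 and 7.41 in the wild type arrays. Pla2g4a, the cytosolic phospholipase A2 gene, had 5.70, 5.95 and 6.08 in the knockout arrays, against 4.65, 4.6, 4.85 and 5.08 in the wild type arrays. All 5 shared with Mme a wild type 4 signal above the mean of the other wild type arrays, by 0.29 to 0.47. Mme was chosen for the difference between genotypes, so genes near it share that difference. Nearness was taken over all 7 arrays, wild type 4 included, so the shared wild type 4 pattern also follows from the choice. The ranking carries no test.

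**Figure D3:**
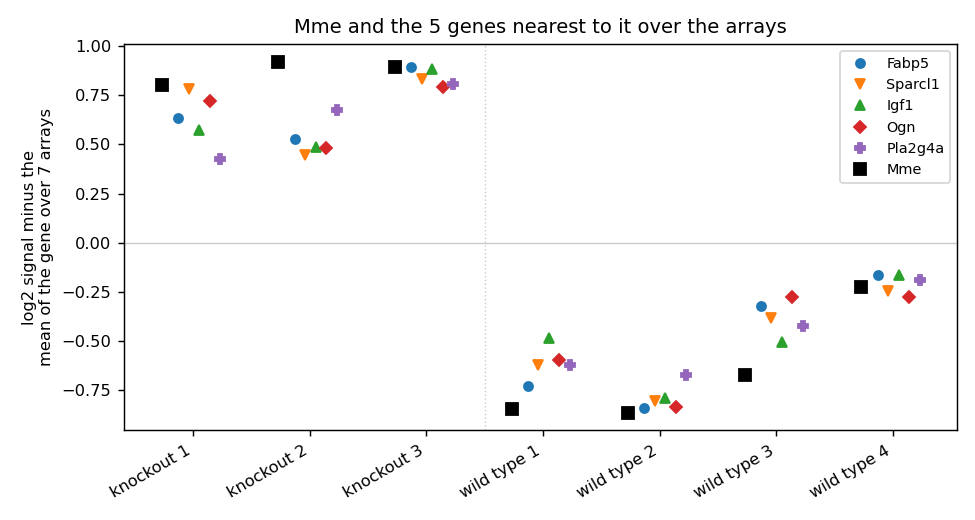
Log2 signal of Mme (black squares) and of the 5 genes nearest to it in each of the 7 arrays, as the distance from the gene's own mean. Every gene lies above its mean in the 3 knockout arrays and below it in the 4 wild type arrays, and wild type 4 is the wild type array nearest to the mean for Mme.

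None of the other 6 genes passed limma's adjusted p of 0.05 on its main probe set. This was 0 of 6, where 16.1% of all tested genes passed limma's threshold, and 0 of 6 by a plain test per gene. At an unadjusted p under 0.05 by limma there were 2 of 6, beside 6146 of all 18194 genes. Their log2 fold changes, knockout minus wild type, ran from −0.24 to 0.26, and the median over all 7 members was −0.025, beside −0.045 over all genes. The genotypes were fully separated for 2 of the 7 genes, Mme above and Mmel1 below, as they were for 28.0% of all genes (12.8% above and 15.2% below). The members were chosen with this contrast in view, so nothing about them as a set is read from these counts.

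Mmel1 encodes a neprilysin-like peptidase, and it was slightly lower in knockout testis without passing the test. It had 8.63, 8.63 and 8.60 in the knockout arrays, against 9.0, 9.05, 8.69 and 8.70 in the wild type arrays. The groups did not overlap, with knockout arrays just under wild type 3 and 4. Knockout testis averaged 8.62 ± 0.02 (SD, n = 3), and wild type testis averaged 8.86 ± 0.19 (SD, n = 4). This was a log2 change of −0.24 (SE 0.10, adjusted p by limma = 0.138), with −0.37, −0.24 and −0.10 inside the title-number groups. Mmel1 lies on chromosome 4, as Phf13 does, with 32 protein-coding genes between them in RefSeq's gene order.

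Ace is the other member known from germ cells. Its main probe set had 8.84, 9.01 and 8.86 in the knockout arrays, against 9.32, 9.14, 8.98 and 9.02 in the wild type arrays. These groups overlapped, with means of 8.90 ± 0.09 (SD, n = 3) in knockout testis and 9.12 ± 0.15 (SD, n = 4) in wild type testis, and the log2 change was −0.21 (SE 0.09, adjusted p by limma = 0.151). It was −0.48 between knockout 1 and wild type 1, and −0.05 and −0.16 in the other title-number groups.

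The second Ace probe set had 7.14, 6.82 and 6.90 in the knockout arrays, against 7.13, 7.11, 6.95 and 6.95 in the wild type arrays. Here knockout 1 was the highest array of all, and the log2 change was −0.08 (SE 0.09). Which Ace form each probe set reads is unstated, and the somatic and germ cell forms share the end of the transcript.

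Spermatid markers were also a little lower in knockout arrays. Of 12, including the protamine genes, 0 rose and 2 fell, Crem and Tssk2, where 7.05% of all tested genes fell. The summed linear signal of the 12 was 73247 to 74497 in knockout arrays and 75152 to 79707 in wild type arrays. Of 8 spermatocyte markers 0 rose and 1, Ccna1, fell, and their sums overlapped (17302 to 19089 in knockout arrays and 18032 to 18564 in wild type arrays). The part of spermatid content in the Mmel1 and Ace values was not tested.

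Ece1 encodes endothelin-converting enzyme, which cuts big endothelin to the active peptide. Its main probe set had 6.30, 6.09 and 6.29 in the knockout arrays, against 5.85, 5.96, 6.09 and 5.96 in the wild type arrays. Knockout 2 and wild type 3 met at 6.09. Means were 6.23 ± 0.12 (SD, n = 3) in knockout testis and 5.97 ± 0.10 (SD, n = 4) in wild type testis, and the log2 change was 0.26 (SE 0.08, adjusted p by limma = 0.0618). Without knockout 2 it was 0.33 with adjusted p = 0.0410, and with the dimmest genes left out adjusted p was 0.0427. These were the only 2 of 16 alternatives in which it passed. Adjusted p by limma was 0.167 without knockout 1, 0.176 without knockout 3 and 0.121 with quantile normalization.

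A second Ece1 probe set, nearly as bright, gave a larger difference. It had 6.13, 6.04 and 6.33 in the knockout arrays, against 5.70, 5.85, 5.82 and 5.67 in the wild type arrays, with no overlap. Its log2 fold change was 0.41 (SE 0.09, adjusted p by limma = 0.0244 over all 34958 probe sets, of which 11.4% passed). A dim one, at 3.47 to 4.13 in knockout arrays and 3.29 to 3.86 in wild type arrays, lay below the array medians, and its log2 fold change was 0.20 (SE 0.19). In the title-number group of knockout 2 the 3 probe sets differed by 0.07, 0.21 and −0.34, and in that of knockout 3 by 0.33, 0.66 and 0.84. Ece1 also lies on chromosome 4, with 198 protein-coding genes between it and Phf13.

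**Figure D4:**
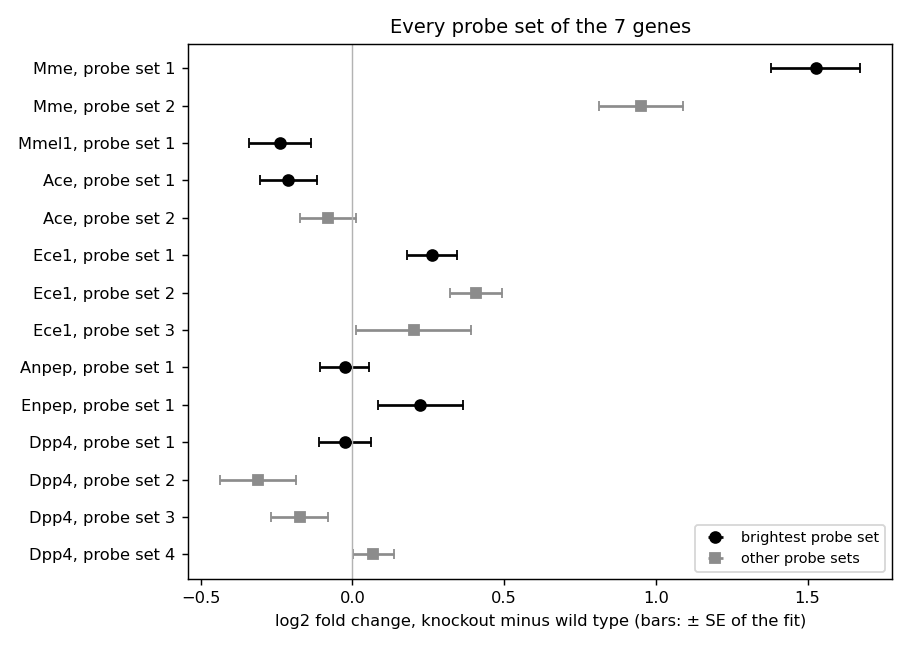
Log2 fold change, knockout minus wild type, of all 14 probe sets of the 7 genes, with bars of ± SE; black circles mark the main probe sets. Both Mme probe sets lie far to the right, at 1.53 and 0.95, the 3 Ece1 probe sets lie right of 0, and the 4 Dpp4 probe sets fall on both sides of it.

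The aminopeptidase genes and Dpp4 were dim in both genotypes. Anpep, aminopeptidase N, had 3.38, 3.17 and 3.28 in the knockout arrays, against 3.20, 3.28, 3.45 and 3.28 in the wild type arrays. Enpep, aminopeptidase A, which turns angiotensin II into angiotensin III, had 3.28, 3.28 and 3.83 in the knockout arrays, against 3.28, 3.06, 3.34 and 3.28 in the wild type arrays. Only knockout 3 stood out, and without it the log2 fold change of Enpep was 0.04 in place of 0.22 (SE 0.14, adjusted p by limma = 0.297).

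Dpp4, also known as CD26, had 4 probe sets, all of them below the array medians in every array. The main one had 4.50, 4.41 and 4.41 in the knockout arrays, against 4.34, 4.61, 4.56 and 4.35 in the wild type arrays. Its log2 fold change was −0.03 (SE 0.08, adjusted p by limma = 0.859), and that of Anpep was −0.03 (SE 0.08, adjusted p by limma = 0.846). The other Dpp4 probe sets gave −0.31, −0.17 and 0.07, none past the threshold over all probe sets. None of these 3 genes was shown to be above background, which limits what difference could be detected in them.

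Other peptidases of the same families and functions were read from lists of 39 genes, of which 34 had a tested probe set. Of these, 1 rose, 4 fell and 29 did not pass (14.7% past limma's threshold, beside 16.1% of all genes, 9.07% up and 7.05% down), and the median log2 fold change was −0.03, beside −0.045 over all genes. The count past the threshold was 2 without knockout 1, 3 without wild type 1, 3 without wild type 2 and 0 without knockout 3. Of the closest relatives of neprilysin and Ace, 0 of 4 passed limma's threshold and 0 passed a plain test. Beside 6146 of all 18194 genes, 1 of these 4 had an unadjusted p under 0.05 by limma. That gene was Ecel1, at −0.20 on the log2 scale (SE 0.07, adjusted p by limma = 0.0887), and Phex and Kel had 0.15 and −0.13. Phex had 0.08 without wild type 3, and Kel had −0.06 without wild type 4.

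Cpe, carboxypeptidase E, which trims peptide hormone precursors in secretory granules, rose. It had 11.12, 10.88 and 11.26 in the knockout arrays, against 10.03, 9.70, 10.33 and 10.31 in the wild type arrays. The groups did not overlap, and the log2 change was 0.99 (SE 0.16, adjusted p by limma = 0.0123), or 1.99-fold. A second, dim Cpe probe set had −0.06, so the mean over both was 0.47 with adjusted p = 0.0177.

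The 4 that fell were Thop1, Dpp10, Dpp8 and Rnpep. Thop1, thimet oligopeptidase, had 9.23, 9.28 and 9.16 in the knockout arrays, against 9.66, 9.62, 9.57 and 9.53 in the wild type arrays, and its log2 signal fell by 0.37 (SE 0.06, adjusted p by limma = 0.0130). Dpp10, a Dpp4 relative without peptidase activity that binds potassium channels, fell by 0.53 (SE 0.11, adjusted p by limma = 0.0205), and the cytosolic Dpp8 fell by 0.36 (SE 0.08, adjusted p by limma = 0.0214). Rnpep, aminopeptidase B, fell by 0.29 (SE 0.06, adjusted p by limma = 0.0245). Knockout arrays lay below all wild type arrays for each of the 4, as for 15.2% of all genes. The 4 were called lower on these same arrays, so their separation is no further support. With the mean of all probe sets, the log2 fold change of Thop1 was −0.20 with adjusted p = 0.0751, and that of Dpp8 was −0.21 with adjusted p = 0.10. With 1 array left out, Thop1 and Cpe lost the threshold only without knockout 3. Dpp10 lost it without any 1 of the knockout arrays, and Dpp8 and Rnpep without knockout 1, knockout 3, wild type 1 or wild type 2.

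The listed peptidases next in order of p had differences of both signs. Dpep1, a membrane dipeptidase, had 6.30, 5.91 and 6.46 in the knockout arrays, against 5.88, 5.67, 5.85 and 5.79 in the wild type arrays. Its groups did not overlap, though knockout 2 came close to wild type 1, and the log2 difference was 0.43 (SE 0.12, adjusted p by limma = 0.0514). Dpep1 passed with median centring (0.0463), without the dimmest genes (0.0349), with trend and robust settings (0.0421) and without knockout 2 (0.0228), all adjusted p-values by limma. With any other single array left out it did not pass, with 0.145 without knockout 1 and 0.159 without knockout 3. Among the aminopeptidases, Lta4h, which also makes leukotriene B4, had 0.24 (adjusted p by limma = 0.125) and Rnpepl1 had −0.17 (adjusted p by limma = 0.192). The lysosomal dipeptidyl peptidase gene Dpp7 had 0.25 (adjusted p by limma = 0.152), and 0.15 without knockout 3. With probe sets averaged, Lta4h had 0.12, Rnpepl1 −0.06 and Dpp7 0.03, and without knockout 2 Rnpepl1 had −0.11.

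The peptides that these enzymes make or cut, and the receptors of those peptides, were read from lists of 43 genes, of which 41 were tested. Of these, 6 rose, 4 fell and 31 did not pass (24.4% past the threshold, beside 16.1% of all genes), with a median log2 fold change of −0.03. For 25 of the 41 both group means lay below the array medians. The count past the threshold was 3 without knockout 1, 3 without wild type 1, 6 without wild type 2 and 0 without knockout 3, and 6 with probe sets averaged.

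Of 7 angiotensin genes, 2 rose, 2 fell and 3 did not pass, where 9.07% of all genes rose and 7.05% fell. This short list was chosen with earlier results of these data known, so nothing about it as a set is read from the count. Agt encodes angiotensinogen, the precursor from which renin and Ace make angiotensin II, and it had 10.73, 10.80 and 11.22 in the knockout arrays, against 9.87, 9.92, 10.08 and 10.33 in the wild type arrays. The groups did not overlap, and Agt rose by 0.87 (SE 0.15, adjusted p by limma = 0.0132), or 1.82-fold, with 0.86, 0.80 and 0.89 within the title-number groups. Atp6ap2, the prorenin receptor gene, had 9.06, 8.96 and 9.25 in the knockout arrays, against 8.34, 8.34, 8.67 and 8.70 in the wild type arrays, and rose by 0.58 (SE 0.12, adjusted p by limma = 0.0189). With 1 array left out, Agt lost its call only without knockout 3, and Atp6ap2 without knockout 1, knockout 3 or wild type 1.

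Mas1, the receptor of angiotensin 1-7, had 5.67, 5.72 and 5.73 in the knockout arrays, against 6.49, 6.40, 5.86 and 6.08 in the wild type arrays. It fell by 0.50 (SE 0.14, adjusted p by limma = 0.0476) and stayed called only when wild type 3 was the array left out. Agtrap, which encodes a protein that binds the type 1 angiotensin receptor, fell by 0.31 (SE 0.07, adjusted p by limma = 0.0286) and stayed called only without wild type 4. Mas1 did not pass with title-number group as a block, and Agtrap did not pass with the mean of all probe sets (−0.20, adjusted p = 0.0607).

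Endothelin genes and most opioid, tachykinin and kinin genes did not pass. Of 4 endothelin genes, 0 passed limma's threshold, beside 16.1% of all genes, and 0 passed a plain test. An unadjusted p under 0.05 by limma was seen for 2 of them, beside 6146 of all 18194 genes. Edn1, the main product that Ece1 activates, had 5.30, 5.05 and 5.69 in the knockout arrays, against 4.93, 5.05, 4.97 and 5.05 in the wild type arrays (log2 fold change 0.35, SE 0.13, adjusted p by limma = 0.110). It depended on single arrays, with 0.495 without knockout 2 (adjusted p by limma = 0.0347) and 0.175 without knockout 3 (0.256). Edn2 and Edn3 had −0.31 and 0.13, with adjusted p by limma of 0.107 and 0.313. Edn2 had −0.20 without knockout 3, and Edn3 had 0.08 without wild type 2, 0.20 without knockout 2 and 0.01 with probe sets averaged.

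Of 15 opioid, tachykinin and kinin genes, 14 did not pass and 1 fell, where 7.05% of all genes fell. The gene that fell was Bdkrb2, the bradykinin B2 receptor, at 3.79, 3.63 and 3.67 in the knockout arrays, against 4.19, 4.08, 4.10 and 4.07 in the wild type arrays. Its fall was 0.41 (SE 0.07, adjusted p by limma = 0.0121) at signals below the array medians, a call lost without knockout 3. Pomc, the precursor of beta-endorphin, had 7.43, 7.73 and 7.67 in the knockout arrays, against 7.78, 7.77, 7.88 and 7.87 in the wild type arrays. The groups did not overlap, by a narrow margin at knockout 2, and the log2 difference was −0.215 (SE 0.08, adjusted p by limma = 0.110), or −0.125 without knockout 1. The tachykinin receptor gene Tacr1 had −0.18 (adjusted p by limma = 0.128).

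Of 15 natriuretic and other substrate genes, 4 rose, 1 fell and 10 did not pass, where 9.07% of all genes rose and 7.05% fell. Cxcl12, a chemokine that Dpp4 inactivates, had 7.29, 7.76 and 8.12 in the knockout arrays, against 6.56, 6.21, 6.88 and 7.33 in the wild type arrays. Its groups overlapped, since wild type 4 lay above knockout 1. The log2 change was 0.98 (SE 0.27, adjusted p by limma = 0.0443), among single arrays left out it stayed called only without wild type 4, and with the mean of its 3 probe sets it was 0.46 (adjusted p = 0.0681).

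Cxcr4, the receptor of Cxcl12, had 5.19, 5.20 and 5.25 in the knockout arrays, against 4.70, 4.31, 4.87 and 4.66 in the wild type arrays, and rose by 0.58 (SE 0.12, adjusted p by limma = 0.0194). The wild type signals of Cxcr4 lie under the array medians and its knockout signals just above them, so its fold is uncertain. App, the precursor of the neprilysin substrate amyloid beta, had 9.69, 9.55 and 9.76 in the knockout arrays, against 8.86, 8.75, 9.19 and 8.89 in the wild type arrays, and rose by 0.74 (SE 0.11, adjusted p by limma = 0.0116). The App probe sets disagreed, and the second brightest gave 0.12, so that the mean of all 4 was 0.16 with adjusted p = 0.156. Without knockout 3 neither App nor Cxcr4 passed, and Cxcr4 also did not pass without knockout 1 or wild type 1.

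The remaining calls were small and at dim signals. Calcrl, part of the adrenomedullin receptor, rose by 0.33 (SE 0.09, adjusted p by limma = 0.0480), and Nppa, which encodes atrial natriuretic peptide, fell by 0.28 (SE 0.06, adjusted p by limma = 0.0232), both below the array medians in all arrays. Nppa did not pass without knockout 1, knockout 3 or wild type 1, and Calcrl passed only without wild type 3 among single arrays left out. The call of Calcrl was also lost with each array centred on its median, with title-number group as a block, and with the mean of its 3 probe sets (0.11, adjusted p = 0.357).

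**Figure D5:**
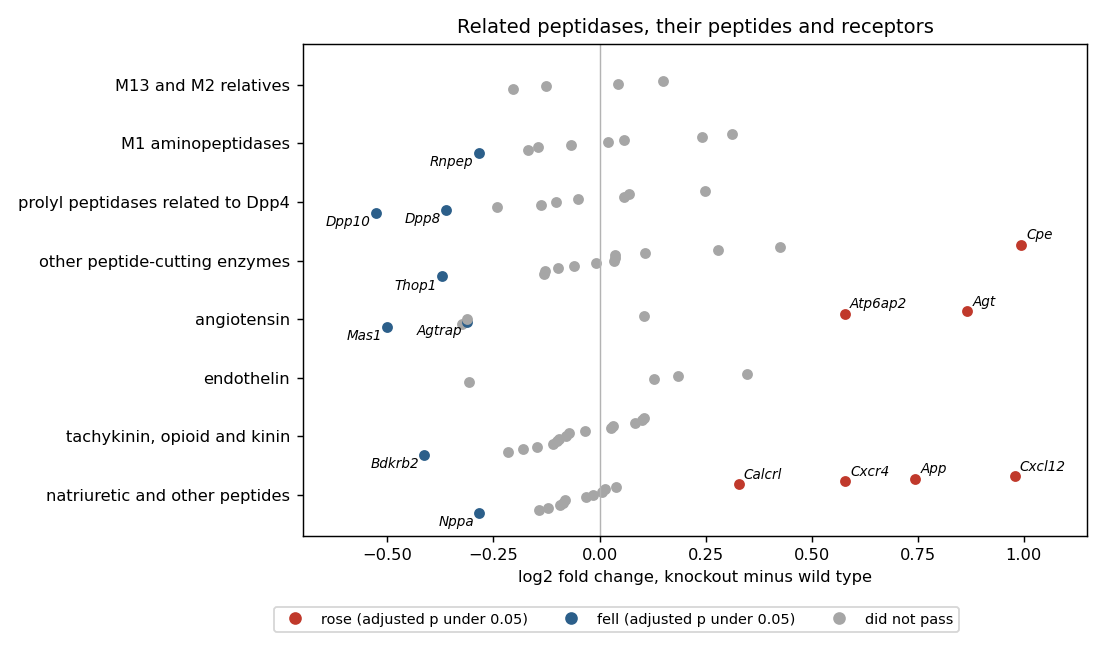
Log2 fold change, knockout minus wild type, of the 34 related peptidases and the 41 peptide and receptor genes, by family; red points rose, blue points fell and grey points did not pass. Cpe, Cxcl12, Agt, App, Atp6ap2 and Cxcr4 lie furthest to the right, from 0.99 to 0.58, and the falls reach −0.53 for Dpp10.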

How the data were processed

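Total RNA of whole testis was isolated with Trizol, and labelled cRNA made from 2 ug went onto Affymetrix arrays, per the labels' protocols. The deposited table holds log2 signals for 45101 probe sets; the log2 scale was read from their range. The submitters' processing notes name Expression Console 1.4.1, and the normalization method is not stated there. Arrays have no read depth, and their number limits the precision. GEO's platform annotation gave 1 symbol to 34958 probe sets, several to 932 and none to 9211. Each of 18194 genes was tested on its brightest probe set with limma 3.58.1 in R 4.3.3 (lmFit, eBayes), adjusted by Benjamini-Hochberg over all genes; rose and fell mean past 0.05. The fit was tested on simulated data.

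Members and lists were chosen with earlier results of these data known. Named are all members, listed genes past the threshold, up to 3 per family of smallest unadjusted p, and the 5 genes nearest to Mme without predicted or clone names. Deviations from the group means of arrays with the same replicate number correlated at 0.182, 0.103 and −0.143, so these numbers do not pair the arrays. Deviations of knockout and wild type arrays in the same title-number group correlated at 0.103, 0.182, 0.164 and 0.319. Those of the remaining pairs correlated at 0.0227 or less. The main fit has no term for title-number group, and a fit blocked by it is an alternative. Alternatives were quantile normalization, median centring, no dim genes, the mean of probe sets, trend and robust settings, blocks, leaving out arrays and a plain test per gene. Removing knockout 3 and wild type 4 together was chosen after seeing the data.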

Additional observations from a re-analysis of the deposited data

Results flagged for a closer look

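In the wild type group, Edn2 had 1 array set apart from the others: wild type 2 had a log2 signal of 3.38, and the other 3 wild type arrays were all at 3.11. The flag rests on the tie of these 3 arrays. All of these signals lie below the array medians. Wild type 2 for Edn2 was the only such array among 46 groups of 4 wild type arrays looked at. Chance flags about 1 group in 20, so 1 among 46 is not more than chance gives.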

How the results depend on the processing

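The count of all genes past the threshold was 2934, and it ranged from 175 (without knockout 3) to 2574 with 1 array left out; leaving out knockout 1 gave 996, wild type 1 gave 741 and wild type 2 gave 1364. It was 4 without knockout 3 and wild type 4 together, and 0 with the plain test (4170 at an unadjusted p under 0.05). The related peptidases gave 5 calls, 0 to 6 with 1 array left out, 3 with the mean of all probe sets, 0 without knockout 3 and wild type 4, and 0 with the plain test (6 at an unadjusted p under 0.05). The peptide and receptor genes gave 10 calls, 0 to 8 with 1 array left out, 6 without the dimmest genes (12 genes tested), 6 with the mean of all probe sets, 0 without knockout 3 and wild type 4, and 0 with the plain test (11 unadjusted). The 6 members other than Mme gave 0 calls, 0 to 1 with 1 array left out and 1 without the dimmest genes, in both cases Ece1. With the replicate number as a block the counts were 2294, 0, 5 and 7 for all genes, members, peptidases and peptides. Blocked by title-number group they were 2317, 0, 5 and 8. Rnpep, Mas1, Nppa and Calcrl did not pass with the replicate block (adjusted p = 0.0666, 0.0608, 0.0519 and 0.0506), and Dpep1 did (0.0412). With median centring 1549 genes rose and 1680 fell, where 1651 rose and 1283 fell before it. The cause of these changes was not tested.

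The Mme difference ran over the 16 alternatives from 1.24 with the mean of its 2 probe sets to 1.67 without wild type 4. Mme was chosen for this difference and its groups do not overlap on either probe set. Leaving out arrays therefore could not turn its direction. With 1 array left out, Anpep ran from −0.0775 to 0.0275 and Dpp4 from −0.0667 to 0.0233. The sign of Anpep turned when knockout 2 (0.0275) or wild type 3 (0.0233) was left out, and that of Dpp4 when wild type 2 (0.0233) or wild type 3 (0.00667) was, at adjusted p-values of 0.854 or more. Mmel1 and Ace stayed below 0 and outside the threshold in all 16. Without detection calls, signals below the array medians limit what can be said of Anpep, Enpep and Dpp4.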
